A study of Homo sapiens with 6 samples.

Results

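The transcripts described here are 37 genes of the NF-κB system, of 56303 genes in the count table. They were taken by name: 12 genes for cytokines and chemokines, and 25 genes for NF-κB subunits, their inhibitors and kinases, feedback proteins, adaptors, surface proteins, RNA decay factors and other genes induced by TNF. The list was chosen with earlier results of these data known. RNA was sequenced from 786-O, an established human line of clear cell renal cell carcinoma, in 2 groups of 3 libraries. The control group received control siRNA (siControl), carries the genotype label WT and is labelled 0 h. The knockdown group received siRNA against NFE2L3 (siNFE2L3) and is labelled 48 h, and siRNA and labelled time therefore cannot be told apart. The genotype label of the second knockdown library reads NFE2L4 and that of the third reads NFE2L5, while the titles of all 3 name NFE2L3. The labels do not say how many different siRNAs were used or whether the libraries came from separate cultures, so the p-values may measure technical spread only. The comparison asks which transcripts change when NFE2L3, a transcription factor of the cap'n'collar family, is reduced.

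NF-κB is a family of dimeric transcription factors that IκB proteins hold in the cytoplasm. When receptors such as those for TNF or bacterial products are engaged, IκB kinases mark IκB for degradation, and the freed dimers enter the nucleus and switch on genes for chemokines, cytokines, adhesion molecules and survival proteins. Many targets are themselves brakes on the pathway, among them NFKBIA and TNFAIP3, and renal carcinoma cells are known to secrete several of the chemokines.

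The total count per library was between 51828446 and 57391929. NFE2L3 itself stood at 116, 113 and 115 CPM (the count scaled to the normalised library total) in controls 1 to 3 and at 19.5, 19.1 and 20.8 CPM in knockdown libraries 1 to 3, which left 17.2% of the control level (log2 fold change -2.54 ± 0.05, standard error, adjusted p = 3.98e-22). Of 10 markers of the renal line 9 passed the filter on low counts, but CA9 was nearly absent. NDUFA4L2 passed at a low level, with 0.415 to 0.899 CPM in controls. Of 12 leukocyte markers 3 passed the filter, the summed level of all 12 was 1.87 to 1.90 CPM in controls and 1.50 to 2.52 CPM in knockdown, and MS4A1 and CSF3R had no count. Of 9 stromal and endothelial markers 4 passed, with a sum over all 9 of 1.56 to 2.00 CPM in controls and 1.25 to 1.49 CPM in knockdown, and CDH5 had no count.

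Transcripts of the NF-κB genes were mostly lower after knockdown, by small amounts. Of 36 members that passed the filter, 24 fell and 1 rose past an adjusted p of 0.05 by edgeR's quasi-likelihood test, with Benjamini-Hochberg adjustment over all 19916 tested genes, and 11 did not pass. Over all tested genes, 14.0% were lower and 12.7% higher by the same rule. The median log2 fold change of the members was -0.23, against -0.00066 for all tested genes. Because the members were chosen with earlier results of these data known, these shares and medians are descriptions and no independent evidence. The 3 knockdown libraries lay below all 3 controls for 24 members, where 20.4% of all tested genes did so, and above all 3 controls for 2 members, where 19.1% of all genes did so. With 3 libraries against 3, an exact two-sided permutation test of a single gene cannot go below 0.1. Only 8 of the 24 lower members fell by 1.3-fold or more, and only CCL20 passed the cutoffs used in the study (an unadjusted p under 0.05 and a fold of at least 2), which 1.10% of all tested genes passed.

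**Figure D1:**
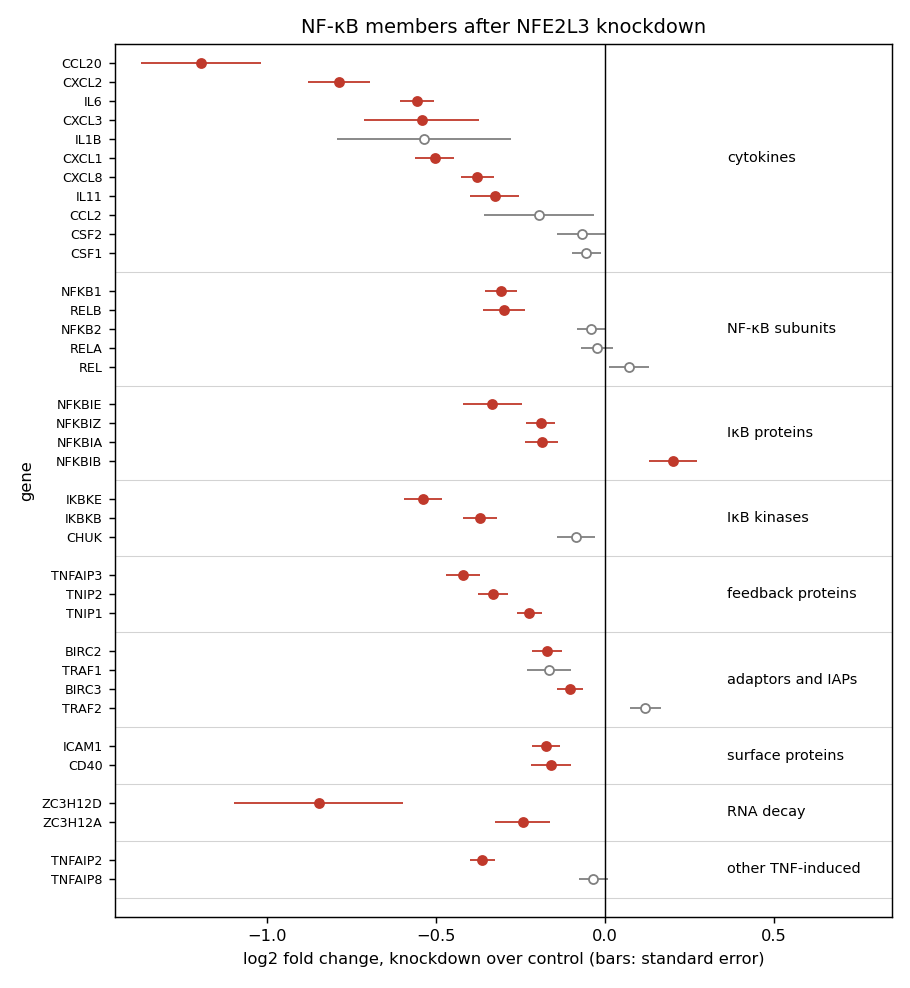
Log2 fold change of knockdown over control for the 36 tested members, grouped by role. Points are edgeR estimates from 3 libraries per group, bars are standard errors, filled red points passed an adjusted p of 0.05 and open grey points did not. The largest fall is that of CCL20 at -1.20, and NFKBIB at 0.20 is the one filled point right of 0.

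Cytokine transcripts and the rest of the genes were both lower on balance, with a larger median fall in the cytokines. Of 11 tested cytokine genes, 7 were lower, none was higher and 4 did not pass, with a median of -0.50 on the log2 scale. Of the other 25 members, 17 fell, 1 rose and 7 did not pass, with a median of -0.19. The summed cytokine level was 916, 978 and 1076 CPM in controls 1 to 3 and 790, 774 and 784 CPM in knockdown libraries 1 to 3. Without CXCL8, which contributed the most counts, the sums were 412, 452 and 467 CPM against 372, 353 and 362 CPM. The groups did not overlap in either sum. No test of the difference between the cytokines and the other genes was made.

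**Figure D2:**
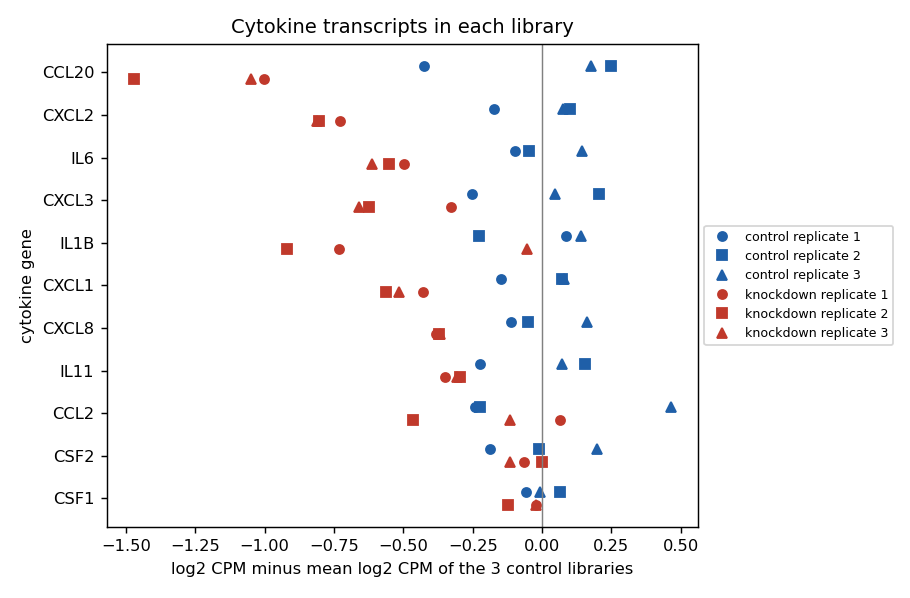
Level of each tested cytokine transcript in each of the 6 libraries, as log2 CPM minus the mean log2 CPM of the 3 controls (blue, control; red, knockdown; the symbol gives the replicate number). The blue circle of control 1 is the leftmost blue point in 10 of the 11 genes, and the red points lie left of all blue points in 7.

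Levels per transcript length differed widely among the members. On the RPKM scale (counts scaled to exon length and library total), CXCL8 had the highest level in controls at 240 ± 24.2 (SD, n = 3), followed by TNIP1 at 130 and TNFAIP2 at 102. IL6, the cytokine that signals through STAT3, stood at 70.6 RPKM and NFKBIA at 56.3 RPKM. At the other end, ZC3H12D had 0.162 RPKM and IL1A 0.068 RPKM. IL1A was not tested, since its counts were 10, 8 and 6 in controls and 10, 8 and 7 in knockdown.

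**Figure D3:**
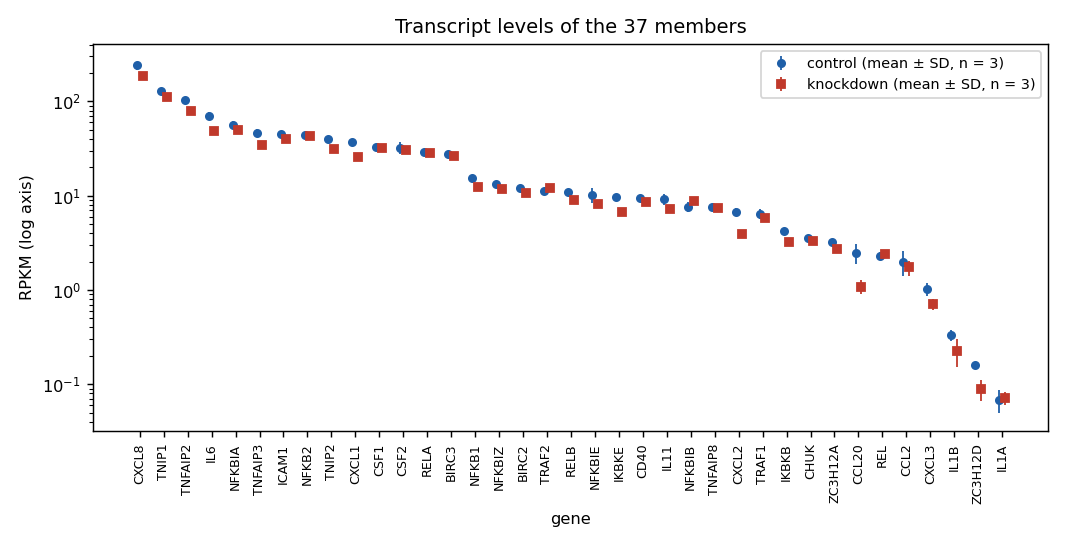
Transcript level of all 37 members in RPKM on a log axis, ordered by the control mean, as mean ± SD of 3 control (blue circles) and 3 knockdown libraries (red squares). CXCL8 leads with 240 RPKM in controls and IL1A is lowest, and the gap between the groups is largest for CCL20.

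CCL20, the chemokine that recruits cells carrying CCR6, showed the largest fall of all members. Its level was 2.43, 3.87 and 3.69 CPM in controls, from 129, 224 and 205 counts, and 1.63, 1.17 and 1.58 CPM in knockdown, from 91, 66 and 81 counts. All knockdown libraries were lower than all controls, but control 1 was far below the other controls. The fall was 2.29-fold (log2 fold change -1.20 ± 0.18, adjusted p = 1.27e-05). IL6 was measured at 136, 141 and 161 CPM in controls and at 103, 99.3 and 95.3 CPM in knockdown. The groups were apart, and IL6 fell to 68.0% of control (-0.56 ± 0.05, adjusted p = 1.02e-08). An antisense gene, AC073072.5, overlaps 428 bases of IL6 exons on the opposite strand and was counted at 16.8% of the IL6 level with a like change (-0.58). The setting for strand in the counting was not stated in the sources used here, so reads of that pair cannot be told apart.

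The CXC chemokines, which attract neutrophils through the receptors CXCR1 and CXCR2, fell together. CXCL8 was at 504, 526 and 608 CPM in controls and at 418, 421 and 422 CPM in knockdown, a fall to 76.9% of control (-0.38 ± 0.05, adjusted p = 2.29e-06). CXCL1 had 42.8, 49.8 and 50.1 CPM in controls against 35.3, 32.2 and 33.2 CPM (-0.50 ± 0.06, adjusted p = 3.17e-07). In both genes control 1 was the lowest control, and the controls spread more than the knockdown libraries. The log2 range was 0.27 in controls against 0.015 in knockdown for CXCL8, and 0.22 against 0.13 for CXCL1. For CXCL1, controls 2 and 3 were nearly equal. CXCL2 had 8.95, 10.8 and 10.6 CPM in controls and 6.10, 5.78 and 5.76 CPM in knockdown, which left 57.9% of control (-0.79 ± 0.09, adjusted p = 3.42e-07). CXCL3 was scarce, with 100, 150 and 129 counts in controls and 100, 82 and 73 in knockdown, that is 1.89, 2.59 and 2.32 CPM against 1.79, 1.46 and 1.42 CPM. The lowest control and the highest knockdown library of CXCL3 nearly touched (-0.54 ± 0.17, adjusted p = 0.0182). Its call was lost without control 2 (adjusted p = 0.101), control 3 (0.05002), knockdown 2 (0.0705) or knockdown 3 (0.0779). CXCL1, CXCL2 and CXCL3 are close paralogs. Their transcripts share identical stretches of up to 77 bases between CXCL1 and CXCL2, 97 between CXCL2 and CXCL3 and 36 between CXCL1 and CXCL3. The reads were 150 bases long, and how reads that match several of these genes were counted was not stated in the sources used here, so their separate counts are uncertain.

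All 4 genes lie in a single chemokine cluster on chromosome 4 in the GRCh38 coordinates of the count table: CXCL8 at chr4:73740506-73743716 and CXCL1 at chr4:73869393-73871242 on the plus strand, CXCL3 at chr4:74036589-74038807 and CXCL2 at chr4:74097035-74099293 on the minus strand. CXCL5, a chemokine of the same cluster that is not among the 37 genes, was lower as well (-0.20 ± 0.04, adjusted p = 0.000471). The neighbouring gene RASSF6 was lower too (-0.51 ± 0.14, adjusted p = 0.00809), while MTHFD2L on the far side was at -0.049 ± 0.09 (adjusted p = 0.742).

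**Figure D4:**
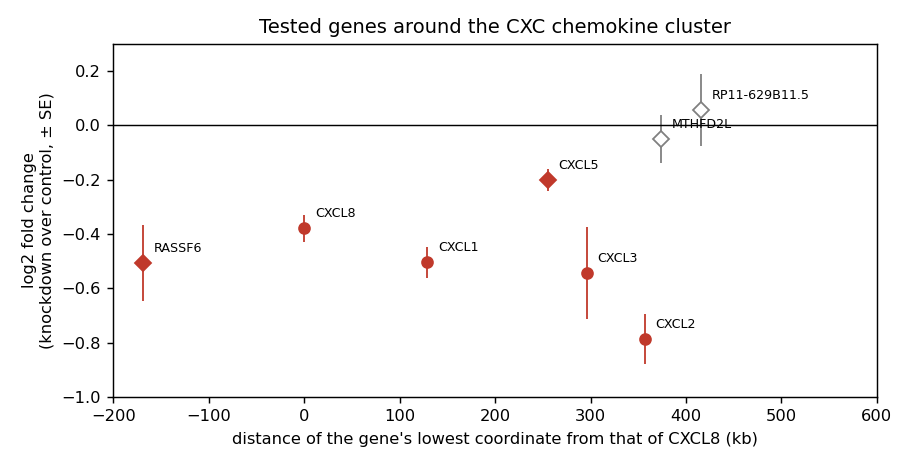
Log2 fold change (± standard error) of the tested genes in and around the CXC chemokine cluster against their distance from CXCL8 in kb. Circles are members and diamonds other genes, and filled points passed an adjusted p of 0.05. The 5 chemokines and RASSF6 are below 0, between -0.20 and -0.79, and the open points at the right are near 0.

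The promoters of these 4 chemokines hold the same 9-letter NF-κB motif, and the 30 bases around it are shown because they carry the feature that the genes have in common. Sequences are from RefSeq (GRCh38.p14), written 5′ to 3′ on the strand of the gene, and the capitals mark the match to GGAATTTCC. Positions count back from the RefSeq start of the gene. The match lies 78 to 70 bases upstream in CXCL1 and CXCL3, 77 to 69 in CXCL2 and 91 to 83 in CXCL8. The count table starts CXCL2 and CXCL3 further upstream than RefSeq, so their stretches fall within the gene spans given above. The stretches are chr4:73869305-73869334 (plus strand), chr4:74099253-74099282 (minus), chr4:74038748-74038777 (minus) and chr4:73740468-73740497 (plus).
CXCL1: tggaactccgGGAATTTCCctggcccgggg
CXCL2: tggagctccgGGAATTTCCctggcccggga
CXCL3: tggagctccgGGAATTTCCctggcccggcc
CXCL8: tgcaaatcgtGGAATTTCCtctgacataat

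In a window of 250 bases upstream to 50 bases downstream of the start, searched on both strands, GGAATTTCC was present in 10 of the 30 members that have a promoter in the RefSeq table, and in 0.461% of all 35114 promoters. The 10 genes were CXCL1, CXCL2, CXCL3, CXCL8, ICAM1, NFKB1, NFKBIA, NFKBIB, NFKBIZ and REL. The looser NF-κB consensus was present in 14 members and in 5.91% of all promoters. Members were counted as genes and the background as promoters. The members were chosen as NF-κB genes, so a higher share among them says nothing about the knockdown. The 9-letter match lies within a consensus match in each of the 10 genes except CXCL8 and ICAM1. Of the 10 members with GGAATTTCC, all of them tested, 8 fell, 1 rose and 1 did not pass, with a median log2 fold change of -0.25. Of 19 tested members whose promoter lacked it, 11 fell and 8 did not pass, with a median of -0.22, so the medians were nearly equal. Over all tested genes 14.0% were lower and 12.7% higher. Of the 14 tested members with a consensus match, 11 fell, 1 rose and 2 did not pass, with a median log2 fold change of -0.27. Of 15 tested members whose promoter had none, 8 were lower and 7 did not pass, with a median of -0.18. TGACNNNGC, the core of the antioxidant response element that cap'n'collar factors bind, was present in 3 members (IL1A, NFKBIA and TNFAIP2) and in 13.3% of all promoters. The AP-1 element TGANTCA was present in 4 (CXCL8, IL11, IL1A and NFKBIB) and in 7.71% of all. A match describes the letters of the window and no binding. CCL2, CSF1, RELB, NFKBIE, IKBKB, CD40 and ZC3H12D are without an entry in that table.

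IL11, a cytokine of the IL6 family, had 20.7, 26.9 and 25.4 CPM in controls and 19.0, 19.7 and 19.6 CPM in knockdown. Control 1 lay just above the knockdown libraries and far from the other controls, and the fall was 1.25-fold (-0.33 ± 0.07, adjusted p = 0.00138). IL1B, made mainly by myeloid cells, had 57, 50 and 62 counts in controls and 34, 30 and 50 in knockdown, or 1.07, 0.865 and 1.12 CPM against 0.608, 0.534 and 0.973 CPM. Knockdown 3 overlapped the controls and IL1B did not pass (-0.54 ± 0.26, adjusted p = 0.134), although it did without knockdown 3 (-0.83, adjusted p = 0.0389). CCL2, the monocyte chemokine, had 3.24, 3.29 and 5.30 CPM in controls and 4.01, 2.78 and 3.54 CPM in knockdown. Control 3 alone stood high for CCL2, the groups overlapped, and the estimate of -0.20 ± 0.16 (adjusted p = 0.415) became 0.075 without that library.

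The colony-stimulating factors showed overlapping groups. CSF1, the growth factor of macrophages, had 172, 187 and 179 CPM in controls and 176, 165 and 177 CPM in knockdown (-0.056 ± 0.04, adjusted p = 0.372). CSF2, which stimulates granulocytes and macrophages, had 22.2, 25.1 and 29.0 CPM in controls and 24.1, 25.2 and 23.3 CPM in knockdown (-0.070 ± 0.07, adjusted p = 0.522). For CSF2 the lowest control was below every knockdown library.

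Among the 5 NF-κB subunits, NFKB1 and RELB were lower and the others did not pass. NFKB1 encodes the precursor of a DNA-binding subunit of the classical dimer and had 90.7, 97.0 and 99.7 CPM in controls against 81.2, 72.2 and 78.9 CPM in knockdown (-0.31 ± 0.05, adjusted p = 2.63e-05). RELB, a subunit of the alternative pathway, had 30.3, 34.8 and 34.9 CPM against 27.8, 24.96 and 28.6 CPM (-0.30 ± 0.06, adjusted p = 0.000711). In both genes the groups were apart and control 1 was the nearest control to the knockdown libraries. RELA, the transactivating subunit of the classical dimer, had 147, 167 and 157 CPM in controls and 158, 146 and 160 CPM in knockdown (-0.023 ± 0.05, adjusted p = 0.766). NFKB2, the partner of RELB, had 186, 206 and 196 CPM against 194, 183 and 194 CPM (-0.041 ± 0.04, adjusted p = 0.534). REL had 28.0, 26.4 and 23.7 CPM in controls and 28.0, 26.8 and 27.2 CPM in knockdown (0.070 ± 0.06, adjusted p = 0.434). The groups of all 3 overlapped. REL shares 5702 bases of exon on the same strand with RP11-373L24.1, which was counted at 65.4% of its level, so its counts are uncertain.

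The transcripts of the IκB proteins, which bind the dimers, did not all move in 1 direction. NFKBIA, itself an early NF-κB target, had 120, 139 and 141 CPM in controls and 119, 116 and 117 CPM in knockdown. Control 1 differed from knockdown 1 by less than the other controls differed from each other, and the call for NFKBIA (-0.19 ± 0.05, adjusted p = 0.00543) was kept in every fit that left out 1 library. NFKBIZ, a nuclear member that acts as a coactivator for IL6, was lower (-0.19 ± 0.04, adjusted p = 0.00172), and NFKBIE was lower with overlapping groups (-0.33 ± 0.09, adjusted p = 0.00505). For NFKBIE the control counts were 1103, 1700 and 1605 and those of knockdown 1104, 1185 and 1131, and DESeq2 gave an adjusted p of 0.122. NFKBIB was the single member called higher, with 15.4, 19.1 and 18.6 CPM in controls and 20.3, 21.3 and 19.4 CPM in knockdown (0.20 ± 0.07, adjusted p = 0.0400). That call was lost without control 1, the lowest library, where the estimate was 0.11 (adjusted p = 0.235). It was also lost without knockdown 1 (adjusted p = 0.0901) or knockdown 2 (0.169).

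IKBKE, a kinase of the IκB kinase family that also acts in interferon induction, had 34.5, 38.1 and 38.0 CPM in controls and 26.7, 23.8 and 25.7 CPM in knockdown, a fall of 1.45-fold (-0.54 ± 0.06, adjusted p = 9.03e-08). IKBKB, the catalytic kinase of the classical pathway, fell by less (-0.37 ± 0.05, adjusted p = 4.91e-06), and its control libraries spread over only 1.01-fold. CHUK, a kinase used in the alternative pathway, did not pass (-0.086 ± 0.06, adjusted p = 0.275), although its knockdown libraries were all below its controls.

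Transcripts of feedback proteins that end NF-κB signalling were lower in all 3 cases. TNFAIP3, a ubiquitin-editing enzyme, had 214, 249 and 243 CPM in controls and 185, 165 and 178 CPM in knockdown, a fall of 1.34-fold (-0.42 ± 0.05, adjusted p = 6.82e-07). The groups were apart, and control 1 was again the lowest control. The transcripts of its binding partners TNIP1 (-0.22 ± 0.04, adjusted p = 4.91e-05) and TNIP2 (-0.33 ± 0.05, adjusted p = 4.09e-06) were also lower. Brakes and effectors of the pathway were both among the lower genes.

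The adaptors, surface proteins and other TNF-induced genes had estimates between -0.36 and 0.12. BIRC2, an inhibitor of apoptosis protein that binds TRAF2 at TNF receptors, was lower (-0.17 ± 0.04, adjusted p = 0.00539), as was its relative BIRC3 (-0.11 ± 0.04, adjusted p = 0.0439). The adaptors TRAF1 (-0.17, adjusted p = 0.0613) and TRAF2 (0.12, adjusted p = 0.0632) did not pass, and their estimates had opposite signs. TRAF1 passed without control 1 (adjusted p = 0.00507) or control 2 (0.0405). The adhesion molecule ICAM1 was lower (-0.18 ± 0.04, adjusted p = 0.00241), as was the TNF receptor family member CD40 (-0.16 ± 0.06, adjusted p = 0.0440). TNFAIP2, a TNF-induced gene of high level, was lower (-0.36 ± 0.04, adjusted p = 5.68e-08), while TNFAIP8 was not called (-0.035, adjusted p = 0.602). Outside the cytokines, subunits and NFKBIA, the 11 lower members with a fold under 1.3 had folds between 1.08 and 1.29. In that set IKBKE (1.45-fold), TNFAIP3 (1.34-fold) and ZC3H12D (1.80-fold) fell by more.

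ZC3H12A, a ribonuclease that degrades cytokine transcripts such as IL6, was lower (-0.24 ± 0.08, adjusted p = 0.0277). Its relative ZC3H12D had 60, 64 and 57 counts in controls and 38, 39 and 22 in knockdown, or 1.13, 1.11 and 1.03 CPM against 0.680, 0.694 and 0.428 CPM (-0.85 ± 0.25, adjusted p = 0.0125). Its call was lost without knockdown 3 (-0.66, adjusted p = 0.0748). BIRC3, CD40 and ZC3H12A each kept their calls in no more than 2 of the 6 fits that left out 1 library, as did CXCL3. BIRC3 lost its call without control 1 (adjusted p = 0.0579), control 2 (0.109), knockdown 1 (0.115), knockdown 2 (0.142) or knockdown 3 (0.0811). CD40 lost it without control 1 (0.0672), control 3 (0.157), knockdown 1 (0.133) or knockdown 3 (0.174), and ZC3H12A without control 2 (0.0691), control 3 (0.132), knockdown 1 (0.0813), knockdown 2 (0.0556) or knockdown 3 (0.0796). The calls of 19 members held in all 6 of these fits.

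The 3 control libraries differed among themselves in these genes. Control 1 was the lowest control for 10 of 11 cytokines and for 19 of the other 25 members, while it was the lowest for 35.2% of all tested genes. Compared with control 3, control 1 was lower for 11 of 11 cytokines with a median log2 ratio of -0.27, and for 21 of 25 other members with a median of -0.088, against 0.00054 over all genes. Control 1 lay between the knockdown libraries and the other controls for 7 cytokines and 12 other members, and for 8.37% of all genes. A low control 1 was not particular to the members. It was below the mean of controls 2 and 3 for 10 of 11 cytokines and 20 of the other 25 members. In lists described below, the same held for 20 of 26 upstream genes and 17 of 20 interferon-stimulated genes. It held for 12 of 25 further NF-κB targets, against 49.6% of all tested genes. Single libraries have no replicates, so these ratios are descriptions. The scaling factor and the total count of control 1 were within the range of the other libraries. So was its mitochondrial share (4.27%, with 3.998% to 4.39% over all libraries). Its share of even values among small counts was the highest (69.9%, against 67.6% to 68.9% in the other libraries). Counts also differed most in the control pairs with control 1, at a chi-square per degree of freedom of 7.11 and 7.61. The value was 6.06 between controls 2 and 3 and 4.01 to 5.70 between knockdown libraries. The cause of the lower cytokine level of control 1 was not tested.

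Knockdown was therefore set against each control library alone. The median log2 difference of the cytokines was -0.28 against control 1, -0.47 against control 2 and -0.58 against control 3. For the other members the medians were -0.14, -0.21 and -0.26 in the same order. Of the 37 members, 13 were lower with control 1 alone, where 8.98% of all genes were, 19 with control 2 alone, where 10.1% were, and 24 with control 3 alone, where 11.5% were. IL6, CXCL1, CXCL2, CXCL8 and CCL20 passed against each of the 3. IL11 (-0.088, adjusted p = 0.546), CXCL3 (-0.27, adjusted p = 0.527), RELB (-0.16, adjusted p = 0.152) and NFKBIA (-0.031, adjusted p = 0.764) did not pass against control 1. In these fits the lone control is assumed to vary like the knockdown libraries. Without control 1, 23 members were lower, where 14.2% of all genes were.

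**Figure D5:**
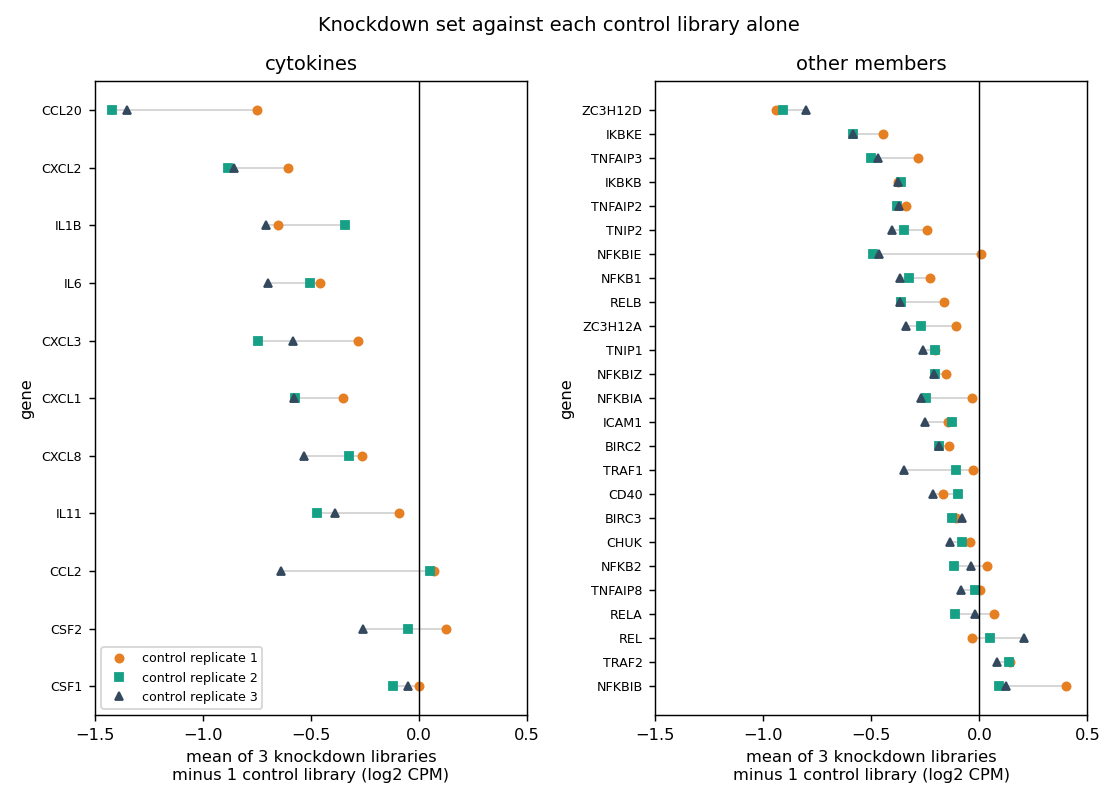
Mean log2 CPM of the 3 knockdown libraries minus that of a single control library, for the cytokines (left) and the other members (right). Each gene has 1 point per control, joined by a grey line. The orange circles of control 1 are nearest to or beyond 0 for most genes, with medians of -0.28 for cytokines and -0.14 for the others.

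Genes that act around these members were counted from 6 further lists, to be read against the 14.0% of all tested genes that were lower and the 12.7% that were higher. Of 26 upstream receptors and signalling genes 7 were lower and 1 was higher, led by MAP3K14 (-0.38, adjusted p = 6.25e-06), which activates CHUK in the alternative pathway, IRAK2 (-0.34) and TLR3 (-0.73). Of 14 ubiquitin and other regulators, 3 were lower (21.4%) and 1 higher (7.14%), shares near those of all genes, with OTULIN (-0.21) and ITCH (-0.17), while TAX1BP1 rose (0.16). Among 25 tested further NF-κB targets 10 were lower and 3 higher, led by the stress gene GADD45B (-0.49), the acute-phase gene SAA1 (-0.40) and IRF1 (-0.32). Of 6 tested cytokine receptors 2 were lower and 1 higher. IL6R (-0.41) and its signalling chain IL6ST (-0.22) were lower, and CSF1R was higher (0.59, adjusted p = 0.0181). Of 13 AP-1, C/EBP and STAT3 factors 7 were lower and 2 higher, with SOCS3 at -0.70, JUNB at -0.42 and JUN, which rose, at 0.32. Of 10 genes for decay of AU-rich transcripts 4 were lower and 1 higher, led by HNRNPD (-0.32), ZC3H12C (-0.31) and ZFP36 (-0.33). Whether these shares differ from that of the members was not tested.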

How the data were processed

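RNA was prepared with a stranded kit that tags cDNA with 8 random bases. Per the labels, reads were paired and 150 bases long. The authors trimmed reads with Trimmomatic (0.36), collapsed tagged copies, aligned them to GRCh38 with STAR (2.5.3a) and counted exon reads with featureCounts (Subread 1.5.1). The deposited values are raw counts per gene, with coordinates and exon length. Whether a read pair was counted once was not stated in the sources used here, and 67.6% to 69.9% of counts from 1 to 29 were even. Halved counts were therefore an alternative. Counts were filtered (filterByExpr, minimum count 10), scaled by TMM and tested with edgeR (4.0.16, R 4.3.3, quasi-likelihood, no block) on all 6 libraries. CPM and RPKM were computed from the counts. DESeq2 (1.42.0) and limma (3.58.1) were alternatives. The members and lists were chosen with earlier results of these data known. Values in every library are given for all cytokines, the 5 subunits, NFKBIA and called members of at least 1.3-fold; from other lists up to 3 genes with the smallest adjusted p are named, and others named were chosen after their values were seen. Replicate numbers do not pair the libraries. No 2 libraries had identical counts, and all differed by more than sampling noise.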

Additional observations from a re-analysis of the deposited data

How the results depend on the processing

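The DESeq2 test, RLE size factors in edgeR, limma, a stricter filter and no filter left the number of lower members between 22 and 24. The 7 lower cytokines did not change in number. The value of 22 came from the DESeq2 test, where NFKBIE (adjusted p = 0.122) and CD40 (0.0600) lost their calls. The single call in the higher direction was unstable: without scaling factors 0 members and 0 non-cytokine members were higher, with control 2 alone 0 and 0, and with halved counts 2 and 2. With control 1 alone, 13 members and 8 non-cytokine members were lower, and the medians were -0.28 for cytokines and -0.13 for the others. With control 3 alone the median of the others was -0.26. The cause of these shifts was not tested. Over the 6 fits that left out 1 library, 20 to 23 members were lower and 0 to 1 higher, cytokines had 6 to 7 lower and a median of -0.50 to -0.38, and the others had 13 to 16 lower, 0 to 1 higher and a median of -0.23 to -0.16. The estimates of 8 members changed sign under some setting, and NFKBIE alone among them was called with all libraries. With control 1 alone they were CCL2 (0.0895), CSF1 (0.0066), CSF2 (0.13), NFKB2 (0.0405), REL (-0.0311), RELA (0.0711), NFKBIE (0.0142) and TNFAIP8 (0.0051), and with control 2 alone CCL2 (0.0657). With 1 library left out, CCL2 ranged from -0.322 to 0.0745, CSF2 from -0.157 to 0.0343 and RELA from -0.0666 to 0.0206. With the replicate number as a block, 22 members were lower and 1 was higher, and BIRC3 (adjusted p = 0.0843) and CD40 (0.0749) lost their calls. The deviations of libraries with the same number were correlated at -0.06, -0.16 and -0.07, so the numbers give no pairing. Depth limits the genes of few counts most: standard errors were 0.26 for IL1B, 0.25 for ZC3H12D, 0.18 for CCL20 and 0.17 for CXCL3.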

Other observations

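Of 20 tested interferon-stimulated genes, whose products act in antiviral defence, 17 were lower and none was higher, with a median log2 fold change of -0.38, where 14.0% of all tested genes were lower. GBP1, a guanylate-binding protein, had 7647, 9129 and 8908 counts in controls and 5020, 5457 and 4597 in knockdown (-0.74 ± 0.05, adjusted p = 1.43e-11). OASL (-1.03 ± 0.08, adjusted p = 3.77e-10) and GBP2 (-0.60 ± 0.05, adjusted p = 4.33e-09) were lower as well. Control 1 was below the mean of controls 2 and 3 for 17 of the 20, with a median of -0.11 on the log2 scale. The median of knockdown minus the mean of controls 2 and 3 was -0.43, and the part of control 1 in the result was not tested.

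Of 9 tested markers of the renal carcinoma line, 4 were lower and 2 higher, with a median of -0.10, where 14.0% of all tested genes were lower and 12.7% higher. KRT8 (-0.32), NNMT (-0.25), KRT18 (-0.25) and PAX8 (-0.15, adjusted p = 0.00626) were lower. VEGFA (0.14, adjusted p = 0.00525) and EPAS1 (0.13, adjusted p = 0.0155) were higher. None of the 3 tested leukocyte markers or the 4 tested stromal and endothelial markers passed in edgeR.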
